A study of Mus musculus with 9 samples.

Results

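Plexins are the cell-surface receptors of the semaphorins, and the mouse genes for all 9 of them were followed here together with Sema3e, the secreted semaphorin that binds plexin D1. The 10 genes were taken by their symbols from the 57180 genes of a hippocampal RNA-seq table. The group was prompted by Plxnd1, which was selected on its difference in normalized counts between knockout and wild-type libraries, so that difference is described here without a test. The other genes were chosen by name. All 10 genes were measured in every library, and all 10 were among the 17036 genes tested, those averaging at least 10 normalized counts. Hippocampi came from C57BL6 mice of 11 days of age. Slc38a3, which encodes the glutamine transporter SNAT3, had been deleted conditionally in endothelial cells of 4 mice (Slc38a3 cKO, 3 males and 1 female), and 5 mice were wild type (WT, 1 male and 4 females). The sources used here do not give the Cre driver, any inducing agent or whether WT mice carried floxed or Cre alleles. WT replicate 1 was the WT male and cKO replicate 2 the cKO female, so sex was a term of every model unless stated.

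Semaphorins guide growing axons, dendrites and blood vessels, mostly by repulsion. They dimerize plexins through an extracellular sema domain, and the plexin cytoplasmic part then acts as a GTPase-activating protein on small Ras-family GTPases, which loosens adhesion and the actin cytoskeleton. Plexins of class A bind class 6 semaphorins directly and secreted class 3 semaphorins with a neuropilin as co-receptor. Plexins of class B bind class 4 semaphorins, plexin C1 binds Sema7a, and plexin D1 binds Sema3e without needing a neuropilin. In the developing hippocampus, plexins A2 and A4 are known from the laminar targeting of mossy fibres and plexin A3 from the pruning of hippocampal axons, while plexin D1 is known from endothelial cells as well as from subsets of neurons.

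Recovered reads per library ranged from 32096409 to 34034530 in cKO and from 30803135 to 33134405 in WT. Slc38a3 checked the labels. It had 379.8, 405.4, 307.7 and 310.2 normalized counts in cKO replicates 1 to 4, against 3392, 2033, 3514, 3363 and 1804 in WT replicates 1 to 5. Its values did not overlap between genotypes, and the fitted log2 difference, cKO minus WT, was -2.99 ± 0.221 (SE; limma adjusted p = 5.54e-05; 2-sided exact permutation p = 0.00794). Markers of hippocampal neurons were present in every library: Prox1, a transcription factor of dentate granule cells, had 5918 to 7188 normalized counts and Wfs1, a marker of CA1 pyramidal cells, had 3164 to 4206. Choroid plexus RNA varied between libraries of both genotypes, the summed normalized counts of 8 marker genes running from 691 to 44322. Because the tissue was bulk hippocampus, fewer cells of a type and less RNA per cell cannot be told apart in any difference below.

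The sequences before the transcription starts differed within the group, and 3 are printed to show this: Plxnd1, its ligand Sema3e, and Plxnc1, the plexin with the next-lowest fold change after Plxnd1. Each is the 250 bases upstream of a RefSeq transcription start in GRCm38.p6, read 5′ to 3′ on the gene's strand, and overlapped no annotated exon. Capitals mark GC boxes, the letters GGGCGG or, on the other strand, CCGCCC. The windows are chr6:115995006-115995255 on the minus strand for Plxnd1, chr5:14025026-14025275 on the plus strand for Sema3e and chr10:94944846-94945095 on the minus strand for Plxnc1.
Plxnd1: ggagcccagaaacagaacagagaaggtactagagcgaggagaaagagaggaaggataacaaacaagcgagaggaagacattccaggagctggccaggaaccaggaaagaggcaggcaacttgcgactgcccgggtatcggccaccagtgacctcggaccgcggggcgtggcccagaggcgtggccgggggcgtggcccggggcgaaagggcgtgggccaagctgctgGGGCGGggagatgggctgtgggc
Sema3e: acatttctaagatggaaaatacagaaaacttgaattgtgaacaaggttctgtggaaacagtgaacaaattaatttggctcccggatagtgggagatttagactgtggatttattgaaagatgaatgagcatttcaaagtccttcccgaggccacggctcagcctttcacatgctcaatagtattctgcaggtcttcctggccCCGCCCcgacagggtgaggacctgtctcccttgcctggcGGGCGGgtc
Plxnc1: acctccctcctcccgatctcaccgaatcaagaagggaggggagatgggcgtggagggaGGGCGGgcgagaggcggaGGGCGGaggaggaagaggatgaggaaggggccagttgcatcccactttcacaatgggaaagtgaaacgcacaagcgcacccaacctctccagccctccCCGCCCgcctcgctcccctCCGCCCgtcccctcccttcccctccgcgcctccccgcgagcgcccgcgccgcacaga

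The Plxnd1 window held 1 GC box, 16 CpG dinucleotides and 64.8% G or C. The Sema3e window held 2 GC boxes, 7 CpG and 48% G or C, and the Plxnc1 window 4 GC boxes, 22 CpG and 68.8%. Over the 32851 windows of the same length in the RefSeq table the median was 52.4% G or C with 6 CpG. Of the 8 members that had a window, 7 held a GC box, a motif found in 32.7% of all windows. Plxnb3 was the exception, with 3 CpG and no GC box. Plxnb2 had 2 windows, both with GC boxes, and the others 1 each. The windows of Plxna2, Plxnb1 and Plxnb3 overlapped an annotated exon, so 5 members had a window clear of exons. The letters TATAA, searched on both strands, were in none of the members' windows and in 22.8% of all windows. These matches describe letters only, and no factor binding was measured. Plxna1 and Plxna4 were not matched to a window.

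Levels were compared between genes per kilobase of merged exon, as the mean ± SD over 9 libraries. Plxna1 led with 1243 ± 66.0 normalized counts per kb, which was 28.3% of the sum over the 9 plexins. Plxna4 followed with 608 ± 38.7, Plxnd1 with 522 ± 52.6, Plxnb1 with 437 ± 16.0 and Plxna2 with 417 ± 30.2. Lower levels were those of Plxnb2 with 404 ± 19.4, Plxna3 with 356 ± 17.0, the ligand Sema3e with 346 ± 29.2 and Plxnc1 with 323 ± 32.1. Plxnb3, known from oligodendrocytes, was lowest with 81.1 ± 6.98. Neighbours in this order were separated without overlap at 3 places, between Plxna1 and Plxna4, between Plxnd1 and Plxnb1, and between Plxnc1 and Plxnb3. All other neighbours overlapped in their ranges over libraries. The 4 class A plexins together made up 59.8% of the plexin sum, the 3 class B plexins 21.0%, Plxnd1 11.9% and Plxnc1 7.35%. The sum itself was 4284 ± 202 normalized counts per kb in cKO (n = 4) and 4478 ± 109 in WT (n = 5), with overlapping ranges of 4000.3 to 4447 and 4396 to 4637.

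**Figure D1:**
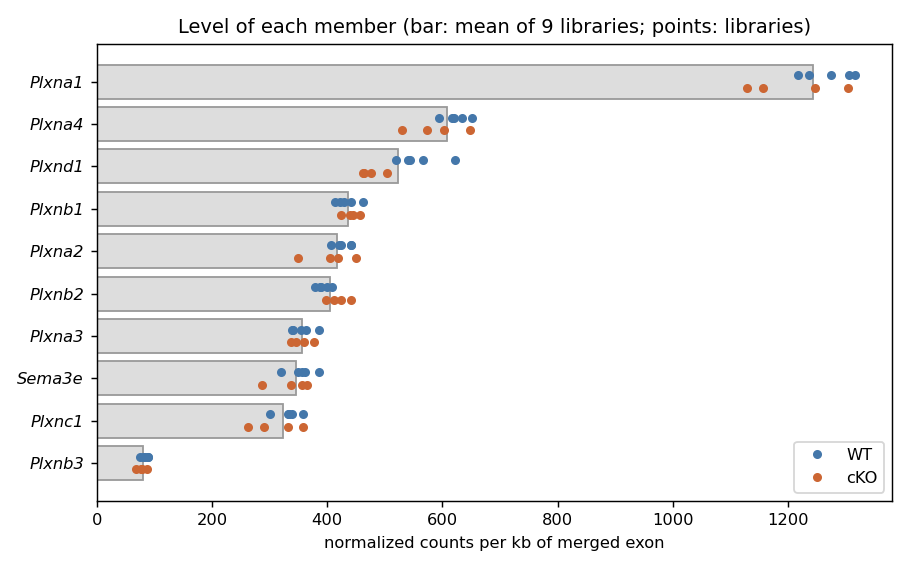
Level of each gene in normalized counts per kb of merged exon (x axis, starting at 0), with bars for the mean of 9 libraries and points for single libraries coloured by genotype. Plxna1 stands at 1243 and Plxnb3 at 81.1, with the other 8 genes between 323 and 608.

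Plxnd1 (ENSMUSG00000030123, chromosome 6, 115931771 to 115971966, GRCm39) encodes the receptor through which Sema3e repels endothelial tip cells and axons. It had 3684, 3477, 3381 and 3389 normalized counts in cKO replicates 1 to 4, and 4546, 3946, 3787, 3968 and 4134 in WT replicates 1 to 5. All cKO libraries lay below all WT libraries, by 102.6 normalized counts at the nearest, and the WT male was the highest of the 9. The means were 3483 ± 141 (SD, n = 4) in cKO and 4076 ± 290 (SD, n = 5) in WT. With sex as a term, the fitted level was 1.22-fold lower in cKO, a log2 fold change of -0.28 ± 0.0536 (SE). This is the value that prompted the group.

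The size of the Plxnd1 difference depended on the 2 libraries that stand alone in their sex within a genotype. Without WT replicate 1 it was -0.19 and without cKO replicate 2 it was -0.38, and these are also the values among females alone and among males alone. As a share of the per-kb plexin sum, Plxnd1 took 10.4% to 11.9% in cKO and 11.8% to 13.4% in WT. On this scale the genotypes overlapped, since cKO replicate 2 at 11.91% lay above WT replicate 3 at 11.8%.

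**Figure D2:**
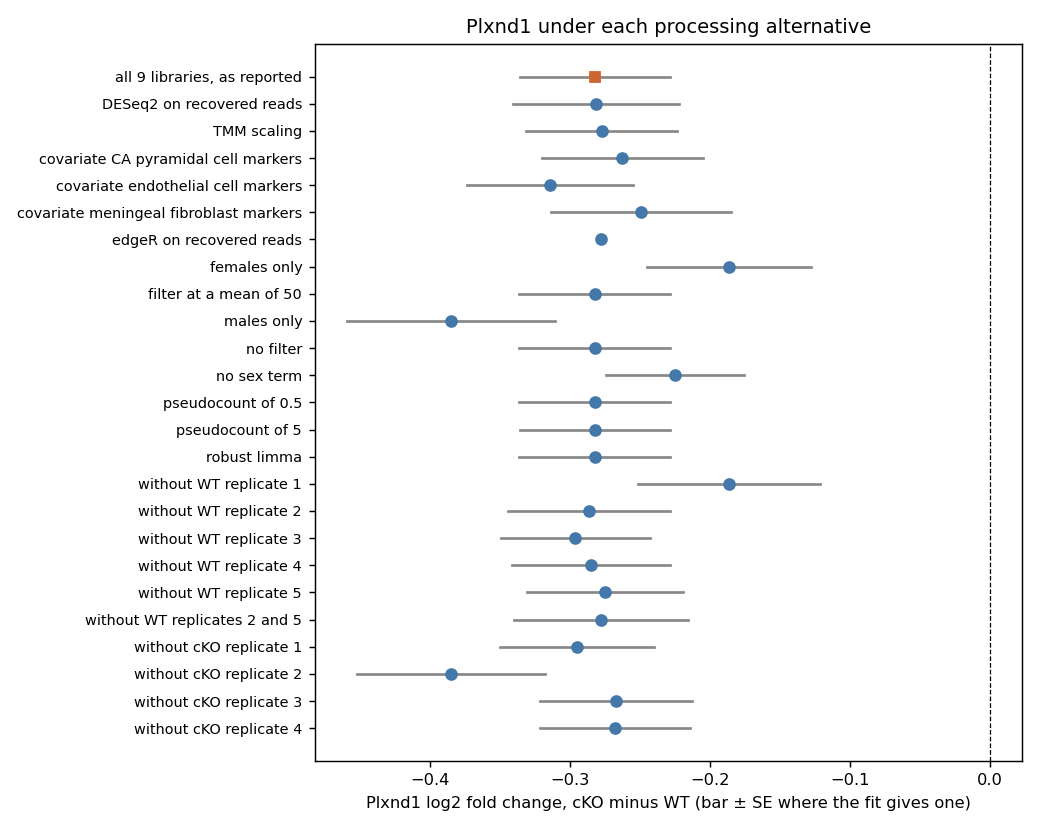
Log2 fold change of Plxnd1, cKO minus WT (x axis), for the reported analysis (square) and 24 alternatives (circles), one per line, with bars for ± SE where the method gives one. The values run from -0.38 without cKO replicate 2 to -0.19 without WT replicate 1, as a description of the difference that prompted the group.

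Plxnd1 is itself expressed by endothelial cells, the cells of the deletion. Of 20 endothelial marker genes, 15 had a fold change below 0, against 51.16% of all genes tested. Values did not overlap between genotypes for 4 of the 20, against 6.29% of all genes. At an unadjusted limma p under 0.05, 4 were lower in cKO, against 6.4%. The test was passed by 1, against 0.346%. It was Flt1, a VEGF receptor that fell by 0.34 on the log2 scale (limma adjusted p = 0.0417). The median log2 fold change of the 20 markers was -0.09, against -0.0034 over all genes tested, and none of them was at 0 in any library. Their summed normalized counts were 14847 to 16419 in cKO and 16132 to 18154 in WT, which overlap. With the mean log2 value of these markers as a further term, Plxnd1 had a log2 fold change of -0.31 ± 0.0594 (SE). With meningeal fibroblast markers as the further term it was -0.25 ± 0.0642. With CA pyramidal cell markers, a term chosen after seeing the data, it was -0.26 ± 0.0577. These values only describe the selected difference. The 12 meningeal marker genes had summed counts of 8163 to 9994 in cKO and 5808 to 9699 in WT, with a median log2 fold change of 0.31, none of them passing. Summed counts did not overlap for 3 other marker lists, mural cells (12459 to 13578 in cKO, 13818 to 15608 in WT), oligodendrocyte precursors (24604 to 25772 and 26612 to 27982) and microglia (9744 to 10977 and 11041 to 11579), and no gene of these lists passed. On the mean log2 scale the mural list (9.18 to 9.33 in cKO, 9.08 to 9.54 in WT) and the microglia list (9.19 to 9.38 and 9.33 to 9.38) did overlap, while the precursor list (10.92 to 11.01 and 11.02 to 11.09) did not. Whether endothelial cells or any other of these cell types have a part in the Plxnd1 difference was not tested.

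Sema3e (ENSMUSG00000063531, chromosome 5, 14075289 to 14306703), the ligand of plexin D1, had 2658, 3124, 3314 and 3395 normalized counts in cKO replicates 1 to 4, and 2966, 3357, 3252, 3586 and 3302 in WT replicates 1 to 5. The genotypes overlapped, and the lowest value of each belonged to its replicate 1. Its fitted log2 difference was -0.03 ± 0.0780 (SE; 95% interval -0.19 to 0.14; limma adjusted p = 0.929). Its sign turned without cKO replicate 1 (0.02) and without cKO replicate 2 (0.07).

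Of the 9 genes other than Plxnd1, none passed the limma test between genotypes, which 0.346% of all genes tested passed, and none passed with edgeR or DESeq2. Fold changes were below 0 for 8 of the 9, with a median of -0.09, where 51.16% of all genes tested were below 0. At an unadjusted p under 0.05, 4 of the 9 were lower in cKO with each of the 3 tools, against 6.4% of all genes tested being lower at that limma p. None of the 9 had values that did not overlap between genotypes, a pattern shown by 6.29% of all genes tested. The 4 genes were Plxna1, Plxna2, Plxna4 and Plxnc1. Without cKO replicate 2, 0 of the 9 had an unadjusted p under 0.05 and 6 were below 0. Each of the 3 tools had sex as a term. In limma without it, 1 of the 9 had an unadjusted p under 0.05, against 15.56% of all genes in either direction. That gene was Plxnb2, higher in cKO by 0.09 on the log2 scale. With sex kept and endothelial markers as a further term, the count was also 1, against 12.88% of all genes, and the gene was Plxna2, lower in cKO. With meningeal markers it was 1, against 7.97%, and the gene was Plxnc1, lower in cKO.

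**Figure D3:**
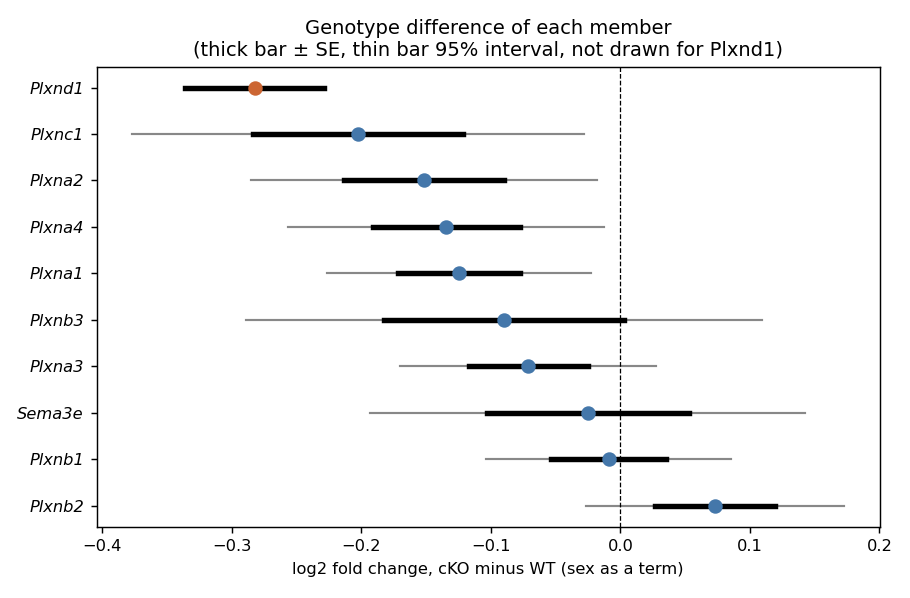
Log2 fold change of each gene, cKO minus WT with sex as a term (x axis), with thick bars for ± SE and thin bars for the 95% interval, which is left out for Plxnd1 because its difference prompted the group. Plxnd1 at -0.28 is the lowest point, and Plxnb2 at 0.07 is the only point above 0.

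Class A plexins were the most abundant class. Plxna1 (ENSMUSG00000030084, chromosome 6, 89293295 to 89339602), a receptor for class 3 semaphorins with neuropilins and for Sema6d, had 10478, 10225, 11799 and 11294 normalized counts in cKO replicates 1 to 4. In WT replicates 1 to 5 it had 11909, 11546, 11195, 11019 and 11823. The first 2 cKO libraries lay below every WT library and the other 2 lay among them. For Plxna1 the log2 difference in the model was -0.12 ± 0.0472 (SE; 95% interval -0.23 to -0.02; limma adjusted p = 0.334).

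Plxna2 (ENSMUSG00000026640, chromosome 1, 194300525 to 194499177), a receptor for Sema6a, had 6952, 5988, 7726 and 7192 normalized counts in cKO, and 7282, 7234, 6979, 7580 and 7593 in WT. Here cKO replicate 2 was the lowest of all 9 libraries and cKO replicate 3 the highest. Fitted over all 9 libraries, Plxna2 had a log2 difference of -0.15 ± 0.0619 (SE; 95% interval -0.29 to -0.02; limma adjusted p = 0.377). Without cKO replicate 2 it was 0.000148, and without WT replicate 1 it was -0.29.

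Plxna4 (ENSMUSG00000029765, chromosome 6, 32121202 to 32565127), a receptor for Sema3a with neuropilin 1 and for Sema6a, had 8092, 7468, 9141 and 8495 normalized counts in cKO, and 8707, 8743, 8383, 8938 and 9196 in WT. Again the first 2 cKO replicates lay below every WT library. Plxna4 had a fitted log2 difference of -0.13 ± 0.0566 (SE; 95% interval -0.26 to -0.01; limma adjusted p = 0.397). It was -0.02 without cKO replicate 2 and -0.24 without WT replicate 1.

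Plxna3 (ENSMUSG00000031398, chromosome X, 73372671 to 73388295), a receptor for Sema3f with neuropilin 2, had 2974, 2662, 2723 and 2842 normalized counts in cKO, and 3037, 2676, 2859.6, 2689 and 2797 in WT. The ranges were nearly the same, with means of 2800.1 ± 138 (SD, n = 4) and 2812 ± 147 (SD, n = 5). In the model the log2 difference of Plxna3 was -0.07 ± 0.0460 (SE; 95% interval -0.17 to 0.03; limma adjusted p = 0.589).

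Class B plexins showed small differences of either sign. Plxnb1 (ENSMUSG00000053646, chromosome 9, 108924456 to 108948985), the receptor of Sema4d that signals to RhoA, had 4378, 4211, 4071 and 4271 normalized counts in cKO, and 4429, 4109.8, 4046, 3975 and 4237 in WT. Its mean was 4233 ± 128 (SD, n = 4) in cKO and 4159 ± 179 (SD, n = 5) in WT, while the log2 difference with sex as a term was -0.0091 ± 0.0441 (SE; 95% interval -0.10 to 0.09; limma adjusted p = 0.955). Its sign turned without WT replicate 1 (0.04), without cKO replicate 3 (0.0071) and without the sex term (0.03). Plxnb2 (ENSMUSG00000036606, chromosome 15, 89039751 to 89064991), which binds Sema4c and Sema4d, had 3404, 3074, 3181 and 3272 normalized counts in cKO, and 2993, 3084, 3151, 3009 and 2922 in WT. Only cKO replicate 2 overlapped with WT. Plxnb2, alone among the 10 genes, lay above 0 in the model, with a log2 difference of 0.07 ± 0.0463 (SE; 95% interval -0.03 to 0.17; limma adjusted p = 0.579), and it was 0.13 without cKO replicate 2 and 0.02 without WT replicate 1.

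Plxnb3 (ENSMUSG00000031385, chromosome X, 72800695 to 72816120), a receptor for Sema5a, had 496, 515, 444 and 571 normalized counts in cKO, and 541.5, 524.5, 579.9, 573 and 490.3 in WT. At a log2 difference of -0.09 ± 0.0925 (SE; 95% interval -0.29 to 0.11; limma adjusted p = 0.753), it had both the widest SE and the lowest level of the 10 genes. Summed counts of 12 oligodendrocyte markers were 23067 to 35188 in cKO and 22752 to 33585 in WT.

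Plxnc1 (ENSMUSG00000074785, chromosome 10, 94626727 to 94780697), the receptor of Sema7a, had 2424, 2189, 2773 and 2983 normalized counts in cKO, and 2835, 2508, 2989.7, 2793 and 2770.02 in WT. Its first 2 cKO replicates lay below every WT library and the other 2 lay within the WT range. Plxnc1 had a fitted log2 difference of -0.20 ± 0.0811 (SE; 95% interval -0.38 to -0.03; limma adjusted p = 0.368). It was -0.06 without cKO replicate 2 and -0.33 without WT replicate 1.

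**Figure D4:**
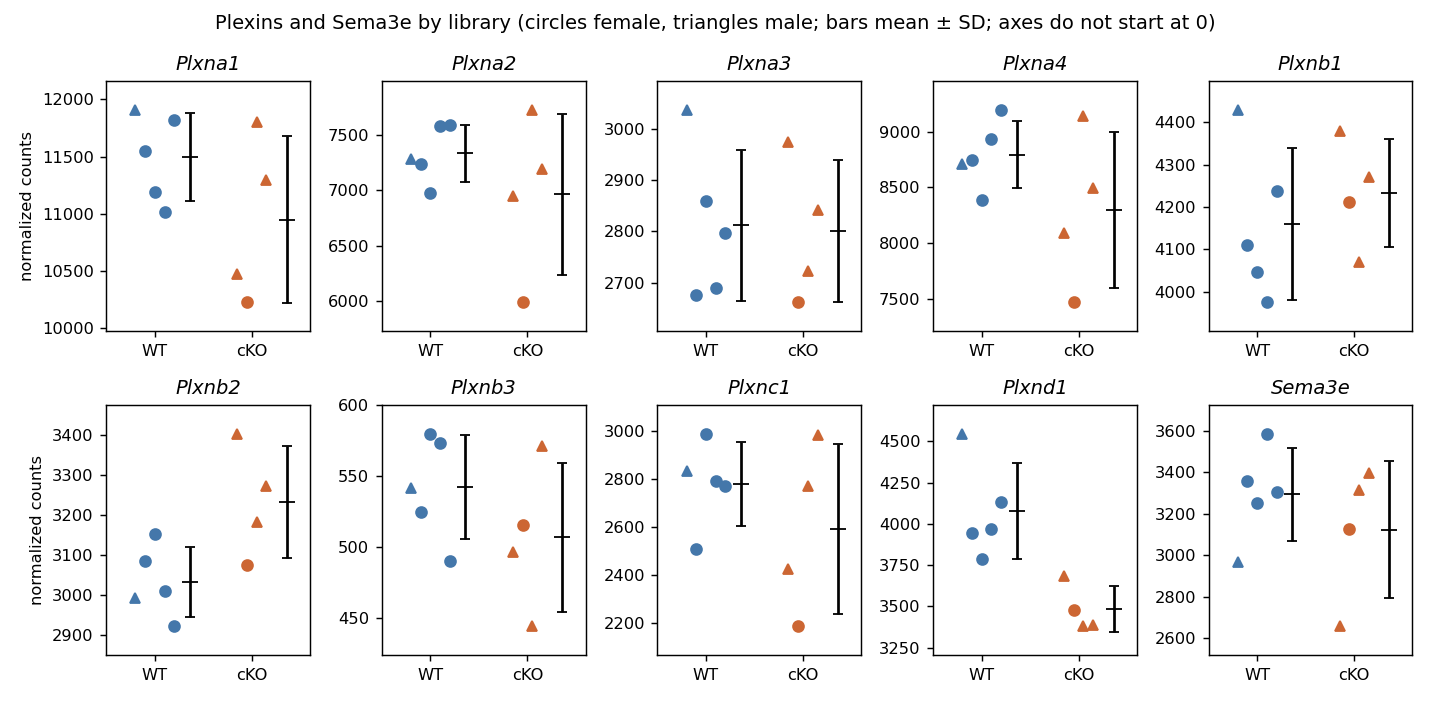
Normalized counts of each gene in every library (y axes, not starting at 0), by genotype, with circles for females, triangles for males and bars for the group mean ± SD. Plxnd1 is the only panel in which the 4 cKO libraries (3381 to 3684) all lie below the 5 WT libraries (3787 to 4546).

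The same libraries recurred at the ends of the ranges. The female cKO replicate 2 was the lowest of the 9 libraries for 5 genes, Plxna1, Plxna2, Plxna3, Plxna4 and Plxnc1, and for 4 of them cKO replicate 1 was the second lowest. WT replicate 1 was the highest for 4 genes, Plxna1, Plxna3, Plxnb1 and Plxnd1. Over the 45 pairs of genes, the log2 values of 26 pairs were positively correlated across the 9 libraries, and 1 pair passed after Benjamini-Hochberg adjustment. That pair was Plxna2 and Plxna4, with Pearson's r = 0.971 (2-sided exact permutation p = 1.65e-05, adjusted 0.000744) and Spearman's rho = 0.967 (exact permutation p = 0.000165, adjusted 0.00744). Leaving out cKO replicates 2 and 3, the 2 libraries farthest from the median of Plxna2, gave r = 0.946, and r within genotypes was 0.971. Their merged exons are the longest of the group, 17174 bases for Plxna2 and 14103 for Plxna4, and whether length has a part in this was not tested. Plxna1 and Plxna4 had r = 0.863 (exact permutation p = 0.00241, adjusted 0.0541) and rho = 0.700 (exact permutation p = 0.0433, adjusted 0.487). Without cKO replicates 1 and 2 that r was 0.481, so it rested on those libraries, and r within genotypes was 0.821. Plxnd1 and its ligand Sema3e had r = -0.104 (exact permutation p = 0.789, adjusted 0.852) and rho = -0.117 (exact permutation p = 0.776, adjusted 0.895). Without WT replicate 1 and cKO replicate 3 that r was 0.266, so its sign rested on those libraries, and r within genotypes was -0.728.

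**Figure D5:**
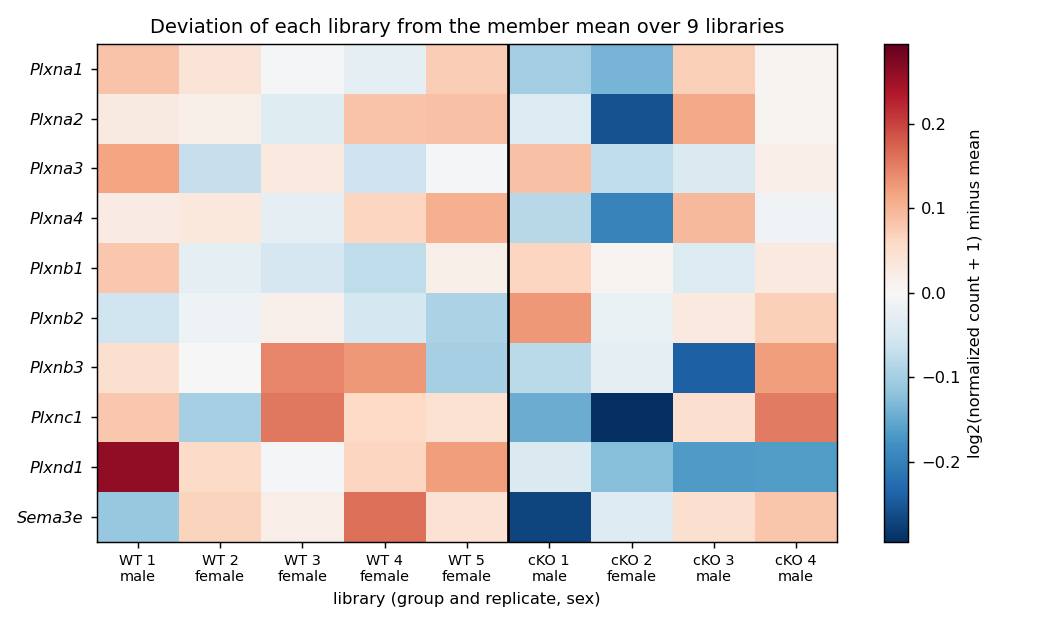
Deviation of each library (columns, with genotype, replicate and sex) from the gene's mean over 9 libraries, on the log2(normalized count + 1) scale, blue for lower and red for higher. The column of cKO replicate 2 is lowest for Plxna1, Plxna2, Plxna3, Plxna4 and Plxnc1, and the rows of Plxna2 and Plxna4 follow each other (r = 0.971).

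The genes whose log2 values were most alike to Plxnd1 and Sema3e over the 9 libraries were taken from 13081 genes that averaged at least 50 and had a symbol other than a clone or predicted-gene identifier. For Plxnd1 these were Ncan (r = 0.974), which encodes the brain proteoglycan neurocan, Pnkd (r = 0.962) and Cbr3 (r = 0.959), a carbonyl reductase. Ncan had 30395 to 32114 normalized counts in cKO and 34313 to 38510.2 in WT, which did not overlap, and its highest library was also WT replicate 1. Cbr3 did not overlap either, while Pnkd did, with 3403 to 3690.1 in cKO and 3683.9 to 3936 in WT. For Sema3e they were Utp23 (r = 0.970), Sphkap (r = 0.963) and Sema5a (r = 0.960), a transmembrane semaphorin that binds plexin B3. Sema5a had its lowest value, 5377, in cKO replicate 1, the lowest library of Sema3e, and its highest, 6915, in WT replicate 4, the highest library of Sema3e. These correlations are descriptions over libraries that share their depth scaling and genotype. Because the genes were picked for likeness, shared extreme libraries follow from the picking. So does a genotype difference in genes like Plxnd1, and neither adds evidence.

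None of the 10 genes passed limma's test between the sexes, which 0.0528% of all genes tested passed. With genotype as a term, 8 of the 10 were lower in females, and 6 were without cKO replicate 2, the only cKO female. The median over all genes tested was -0.00028, female minus male. At an unadjusted p under 0.05 there was 1, against 6.73% of all genes tested. It was Plxna3 on the X chromosome, with a log2 difference of -0.12 ± 0.0460 female minus male (SE; limma adjusted p = 0.710). Plxnb3, the other X-linked gene, had 0.02 ± 0.0925 (limma adjusted p = 0.979). The interaction of sex and genotype passed for none of the 10 genes and for 0.00587% of all genes tested. At an unadjusted p under 0.05, a level reached by 7.9% of all genes tested, there were 2, Plxna2 with -0.29 ± 0.0954 (SE; limma adjusted p = 0.570) and Plxna4 with -0.21 ± 0.0981 (SE; limma adjusted p = 0.628). A negative value means a lower cKO level relative to WT in females than in males, and the female cKO side is 1 library, cKO replicate 2. DESeq2 and edgeR called none of the 10 in either contrast.

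Ligands, co-receptors and intracellular partners of plexins were counted over lists of 63 further genes. None passed the genotype test in limma, which 0.346% of all genes tested passed. Fold changes were below 0 for 43, with a median of -0.05, against 51.16% of all genes tested. Values did not overlap between genotypes for 7, against 6.29% of all genes tested. At an unadjusted p under 0.05 there were 10, all lower in cKO, against 6.4% of all genes tested being lower at that p. The count below 0 depended on single libraries. Without WT replicate 1, the only WT male, 34 of the 63 were below 0, and without cKO replicate 2, the only cKO female, 49 were. Among the 7 class 3 semaphorins, the secreted ligands including Sema3e, none passed and the median was 0.14. Their smallest p-values belonged to Sema3f (0.27 ± 0.172), Sema3a (0.19 ± 0.145) and Sema3g (0.14 ± 0.109), with limma adjusted p of 0.589, 0.645 and 0.666. Among the 6 class 4 semaphorins, ligands of class B plexins, none passed and 3 were below 0. Sema4a had -0.16 ± 0.0899, Sema4c 0.05 ± 0.0601 and Sema4d -0.04 ± 0.0503, with limma adjusted p of 0.522, 0.777 and 0.791.

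All 7 semaphorins of classes 5 to 7 were below 0, with a median of -0.07, against 51.16% of all genes tested. None passed, against 0.346%. The value nearest 0 was that of Sema6a, at -0.02 ± 0.0515 (SE). Sema7a, the membrane-anchored ligand of plexin C1, had 4036, 4626, 3785 and 4102 normalized counts in cKO replicates 1 to 4, and 5112, 5157, 4659, 4997 and 4662 in WT replicates 1 to 5. The genotypes did not overlap, the nearest being cKO replicate 2 and WT replicate 3. Sema7a had a fitted log2 difference of -0.21 ± 0.0628 (SE), with a limma adjusted p of 0.218. Sema6b had -0.08 ± 0.0469 and Sema5b -0.09 ± 0.0736, with limma adjusted p of 0.572 and 0.689.

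Of 13 plexin co-receptors none passed in limma, 9 were below 0 and 2 did not overlap, against 6.29% of all genes tested. Kdr, the VEGF receptor that associates with plexin and neuropilin complexes and is itself an endothelial marker, had 1477, 1474, 1609 and 1550.2 normalized counts in cKO, and 1796, 1835, 1862, 1781 and 1717 in WT. Every cKO library lay below every WT library. Kdr had a fitted log2 difference of -0.25 ± 0.0503 (SE), with a limma adjusted p of 0.0568, and it passed with DESeq2, with robust limma and without the sex term. Nrp1, neuropilin 1, the co-receptor for Sema3a, had 3797, 4000.3, 4125.5 and 4244 normalized counts in cKO, and 4439, 4433, 4420.4, 4481 and 4509.9 in WT. Its genotypes did not overlap either, at a fitted log2 difference of -0.14 ± 0.0441 (SE) and a limma adjusted p of 0.235. Met, the receptor tyrosine kinase that pairs with plexin B1, had -0.23 ± 0.0908 (limma adjusted p = 0.356). Nrp2, neuropilin 2, the co-receptor for Sema3f, was named after its values were seen and had -0.0009 ± 0.0568 (limma adjusted p = 0.996).

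Of 31 intracellular partners none passed in limma, 24 were below 0, 4 did not overlap and the median was -0.06, against 6.29% without overlap and 51.16% below 0 among all genes tested. The 3 smallest p-values were those of Dpysl3, Dpysl5 and Crmp1, which encode collapsin response mediator proteins. Dpysl3 had 35117 to 37100.5 normalized counts in cKO and 37616 to 44700.1 in WT, without overlap. The fitted log2 difference was -0.19 ± 0.0511 (SE) with a limma adjusted p of 0.165, and it passed with DESeq2. Dpysl5 had -0.16 ± 0.0462 and Crmp1 -0.16 ± 0.0597, with limma adjusted p of 0.197 and 0.330. Both overlapped between genotypes. Dpysl5 had 15618 to 18327 normalized counts in cKO and 16589 to 20048 in WT, and Crmp1 27563 to 30597 and 29307 to 34860. For all 3 genes WT replicate 1, the only WT male, was the highest of the 9 libraries. The next highest for Dpysl3 was WT replicate 5 with 39015. The family's other 2 genes, named after their values were seen, had -0.05 ± 0.0398 for Dpysl2 and 0.06 ± 0.0652 for Dpysl4, with limma adjusted p of 0.638 and 0.747.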

How the data were processed

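Hippocampal total RNA of 9 mice was made into stranded libraries, per the labels' protocols. Per the submitters' processing notes, the tools, in no stated order, were STAR 2.7.10b, DESeq2 1.41.8, cutadapt 4.4 and FastQC 0.12.1, and the build was GRCm39. The sources used here do not give the counter, annotation or strand setting, and reads of overlapping or antisense genes may be mixed. The values deposited by the authors are a signal per gene, read from their steps as counts scaled by a single size factor for each library. Dividing by each library's step (0.943 to 1.08) gave whole reads within 0.1 read. In cKO replicate 1 and WT replicates 1 and 4 the step is so near 1 that low values cannot tell it from rounding, so their depths and the count-based alternatives are less certain.

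Group and sex came from the labels, and replicate numbers follow record order and pair nothing. Chi-square per gene between libraries of a group was 3.43 to 11.9, so none was merged. Nothing says whether they are separate litters, so p-values measure only the spread between these samples. The test was limma-trend (limma 3.58.1, R 4.3.3) on log2(normalized count + 1), which understates changes of low genes, with sex and genotype as terms, over 17036 genes with a mean of at least 10. Calls had a Benjamini-Hochberg adjusted p under 0.05. Sex by genotype was a further fit. edgeR 4.0.16 and DESeq2 1.42.0 were run on recovered reads as alternatives. The code was tested on simulated data. Exon lengths are merged GENCODE M21 exons, and promoters are RefSeq's for GRCm38.p6, whose coordinates are not those of GRCm39.

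The genes and lists were chosen with earlier results of these data known, so no list is independent evidence. Named beside the 10 genes were Slc38a3, up to 3 genes of smallest p per list, and the 3 genes most correlated with Plxnd1 and with Sema3e. Marker genes (Prox1, Wfs1, Flt1 and astrocyte genes) were named as checks, and Nrp2, Dpysl2 and Dpysl4 after their values were seen. Marker lists served as checks: endothelial, mural, astrocyte, oligodendrocyte and precursor, microglia, meningeal, choroid plexus, dentate granule, CA pyramidal, interneuron and blood cells.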

Additional observations from a re-analysis of the deposited data

How the results depend on the processing

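No gene of the group other than Plxnd1 passed the genotype test in any of 24 alternatives, and none of the 10 passed for sex in 21 alternatives or for the interaction in 9. Plxnd1 was -0.186 among females only and -0.385 among males only, and -0.385 to -0.186 with 1 library left out. The adjusted p under 0.05 on which Plxnd1 was selected is no test of it here, and as a limit of that selection it was met in 9 of the 24 alternatives, and in 1 of the 9 that leave out a library (WT replicate 3). The count of other genes of the group without overlap was 0 to 1 with 1 library left out, the 1 being Plxnb2 without cKO replicate 2. Of the 63 pathway genes, DESeq2 called 2 (Kdr, Dpysl3), the fit without the sex term 2 (Sema7a, Kdr) and robust limma 1 (Kdr). Small fold changes turned sign. Plxna2 was 0.000148 among males only, and ran from -0.294 to 0.000148 with 1 library left out. Plxnb1 was 0.0417 among females only, 0.0259 without the sex term and 0.00683 with CA pyramidal markers as a term, chosen after seeing the data, and ran from -0.0634 to 0.0417 with 1 library left out. Sema3e was 0.0656 among males only and 0.0351 with meningeal markers as a term, and ran from -0.110 to 0.0656 with 1 library left out. The cause was not tested. Slc38a3 kept its direction and call in all 24, from -3.35 to -2.66. Over all genes the number called ran from 3 among males only to 216 without the sex term, against 59 as reported. The interaction could not be fitted without cKO replicate 2 or WT replicate 1. No paired analysis was possible because the replicate numbers were given in record order and the labels pair no samples.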

Other observations

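Marker lists not described above gave the following. Of 12 astrocyte markers, 4 were below 0, the median log2 fold change was 0.06, and 2 rose and 1 fell in cKO by limma, where 0.346% of all genes tested passed. S100b, a calcium-binding protein, rose by 0.35 ± 0.0541 (SE; limma adjusted p = 0.0141), with 1127 to 1436 normalized counts in cKO and 957 to 1144 in WT, which overlap. Gfap, an intermediate filament protein, rose by 0.29 ± 0.0553 (SE; limma adjusted p = 0.0420), with 11009 to 13524 normalized counts in cKO and 9854 to 11339.5 in WT, which overlap. Aqp4, the water channel of astrocyte endfeet, had a log2 fold change of -0.35 ± 0.0403 (SE; limma adjusted p = 0.00206), with 7922 to 8736 normalized counts in cKO and 10457 to 11549 in WT, which do not overlap. None of 8 dentate granule, 11 CA pyramidal, 10 interneuron, 12 oligodendrocyte, 8 choroid plexus or 6 tested blood cell markers passed, with median log2 fold changes of 0.07, -0.06, 0.03, 0.17, 0.54 and -0.17.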
